A study of Homo sapiens with 12 samples.

Results

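The MYC and PVT1 locus was taken as the stretch of chromosome 8 from 127700000 to 130000000 (hg19, counted from 1), 2.30 Mb long. It holds the MYC gene (128748315 to 128753680), the PVT1 gene (128806779 to 129113499) and the gene-poor sequence on both sides. Its members are all H3K27ac peaks that overlap this stretch by at least 1 bp, which is a choice by position and not by any measured value. They numbered 1016 of the 659281 peaks that 9 deposited lists hold on chromosomes 1 to 22 and X. The libraries came from MDA-MB231, an established breast cancer cell line, 96 hours after infection with lentivirus. Control cells carried EV-control, CDK19KD cells an shRNA against CDK19 and CDK8KD cells an shRNA against CDK8, with 3 libraries in each of the 3 groups. All groups share the cell line, the infection, the culture medium with serum and the H3K27ac antibody, and the chromatin was native (unfixed), from 250000 to 500000 cells per library. Nothing states that the replicates were separate cultures, so the p-values measure only the spread between these libraries, which may be technical. How many shRNA sequences were used, and how far each kinase was reduced, was not analysed here.

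MYC encodes a transcription factor of the basic helix-loop-helix leucine zipper class that binds DNA with its partner MAX and drives growth and division. PVT1 is a long noncoding RNA gene that lies downstream of MYC on the same strand, hosts several microRNA genes and is often gained together with MYC in tumours, and its promoter is known to compete with that of MYC for enhancers within the gene. The flanks are a gene desert with few coding genes and many enhancers that act on MYC in different tissues, some of them at common cancer risk variants. H3K27ac, acetylation of lysine in the tail of histone H3, marks active promoters and enhancers, and CDK8 and CDK19 are the paralogous kinases of the Mediator kinase module, which acts between enhancers and the transcription machinery. In the RefSeq gene order of GRCh38.p14, the noncoding gene CASC11 comes directly before MYC and no gene lies between MYC and PVT1. The microRNA genes MIR1204, MIR1205, MIR1206 and MIR1207 lie inside PVT1, and MIR1208 follows it. The nearest protein-coding genes are POU5F1B before MYC and GSDMC after it.

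Each list was called by the authors on 1 library, and lists had 62669 to 87530 peaks covering 8.62% to 10.5% of the chromosomes. Replicate numbers were shared across the groups, and libraries with the same number deviated together, so values with the replicate number as a block are given where they change a call. Read depth is unknown. A longer or shorter list can therefore hold more or fewer peaks at any locus, and the values carry no counting error.

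The locus was densely covered by H3K27ac peaks in every library. Peaks covered 597, 619 and 604 kb of it in Control replicates 1, 2 and 3, 653, 611 and 529 kb in CDK19KD, and 713, 696 and 651 kb in CDK8KD. The mean over the 9 libraries was 27.4% ± 2.42 (SD, n = 9) of the locus. The covered share of the locus was 2.53 to 3.22 times that of the whole list in each library. Neither the copy number of the locus nor the Input libraries were analysed here. When chromosomes 1 to 22 and X were cut into 1309 consecutive stretches of the same length, 27 of them (2.06%) had a higher mean covered share, and the median stretch had 8.51%. In single libraries, 0.458% (CDK8KD replicate 1) to 5.81% (Control replicate 3) of the stretches exceeded the locus, and replicate 3 had the highest share in each group. Coverage was uneven inside the locus, as the map of peaks by library shows. In consecutive bins of 100 kb, the mean over the libraries ran from 0.541% at the upstream end to 86.6% in the bin that starts 152 kb downstream of the MYC start. PVT1 held 31.3% to 48.2% of the covered length of the locus, and the flank downstream of PVT1 held 32.6% to 43.8%.

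**Figure D1:**
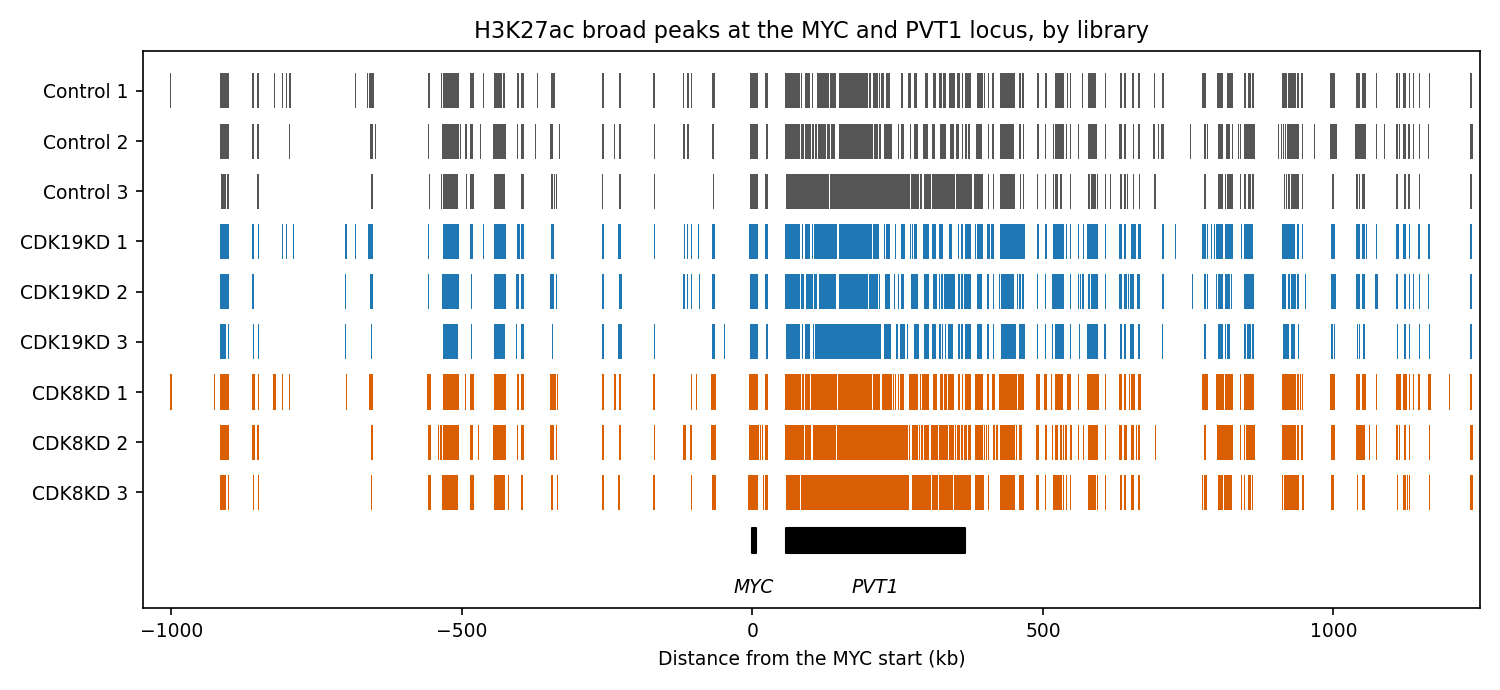
Peaks of the 9 libraries (rows) along the locus, as the distance from the MYC start in kb, with bars coloured by group and the gene bodies of MYC and PVT1 in black below. Each library has a peak over MYC, a dense block over PVT1 and separate clusters of peaks on both flanks.

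At MYC a single peak covered the start and the whole gene in each of the 9 lists. The peak was 12.7, 13.2 and 13.3 kb wide in Control replicates 1, 2 and 3. In CDK19KD it was 13.5, 13.7 and 13.7 kb wide, and in CDK8KD 16.1, 16.1 and 17.5 kb. The 3 groups did not overlap, with CDK8KD the widest, and the means were 13.0 ± 0.326 kb in Control, 13.7 ± 0.0990 kb in CDK19KD and 16.5 ± 0.796 kb in CDK8KD (SD, n = 3 each). The share of the variance in width that lay between groups was 93.3% (exact permutation p = 0.00357, the smallest possible, adjusted over 6 measures of the locus 0.0214). With labels permuted within replicate numbers the exact p was 0.0278, also the smallest possible, and 0.0833 when adjusted over the 6 measures. The log2 ratio of the means was 0.34 for CDK8KD against Control, 0.065 for CDK19KD against Control and −0.28 for CDK19KD against CDK8KD, each with an exact two-sided p of 0.1, below which 3 against 3 libraries cannot go. When each library's value was scaled by the total covered length of its list, the ratio for CDK8KD against Control was 0.31, while that for CDK19KD against Control was larger, at 0.21, and that between the knockdowns smaller, at −0.10.

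The extra width in CDK8KD lay mainly before the gene. The peak began 3.55, 3.59 and 3.90 kb upstream of the MYC start in the Control replicates and 3.62, 4.18 and 3.83 kb upstream in CDK19KD. In CDK8KD it began 6.26, 5.08 and 7.11 kb upstream, farther than in any other library. The downstream edge, beyond the end of the gene, lay 9.13 to 9.60 kb from the start in Control, 9.49 to 9.92 kb in CDK19KD and 9.81 to 11.0 kb in CDK8KD, so that CDK8KD was again above Control in every library and CDK19KD overlapped with CDK8KD and with Control. By gene order CASC11 lies on the upstream side, and its position relative to the peak was not measured.

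A wider MYC peak in CDK8KD was not particular to MYC. Among the 34048 merged regions that all 9 libraries held, meaning stretches built from overlapping peaks of the lists, 8.93% were covered over a greater length in each CDK8KD library than in each of the other 6. Of the 45 such regions in the locus, 4 (8.89%) had this order, and 1 had the opposite one, with CDK8KD below all others (1.16% of all regions). The same test of 3 groups reached its smallest p in 1.87% of the 34048 regions and in 2 of the 45 in the locus (4.44%). An unadjusted p under 0.05 was found in 15.4% of the 34048 regions and in 6 of the 45 (13.3%). Adjusted over all these regions, the value for MYC was p = 0.191 (exact permutation test with Benjamini-Hochberg adjustment). The log2 ratio of covered length between CDK8KD and Control was 0.35 in the MYC region, with a median of 0.085 over all regions, and 24.1% of regions had a higher ratio.

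By the peak caller's own measure, the MYC peak was among the stronger peaks of each list without being at the top. The fold enrichment given by the authors' caller was 6.98, 4.82 and 6.35 in Control, 7.75, 5.76 and 7.92 in CDK19KD, and 5.94, 5.88 and 6.63 in CDK8KD. The −log10 p, also from the deposited lists, placed it between rank 1213 and rank 4146 of its list, which is within the strongest 6.61% in each. These values describe peaks within their own list and were not compared between groups.

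**Figure D2:**
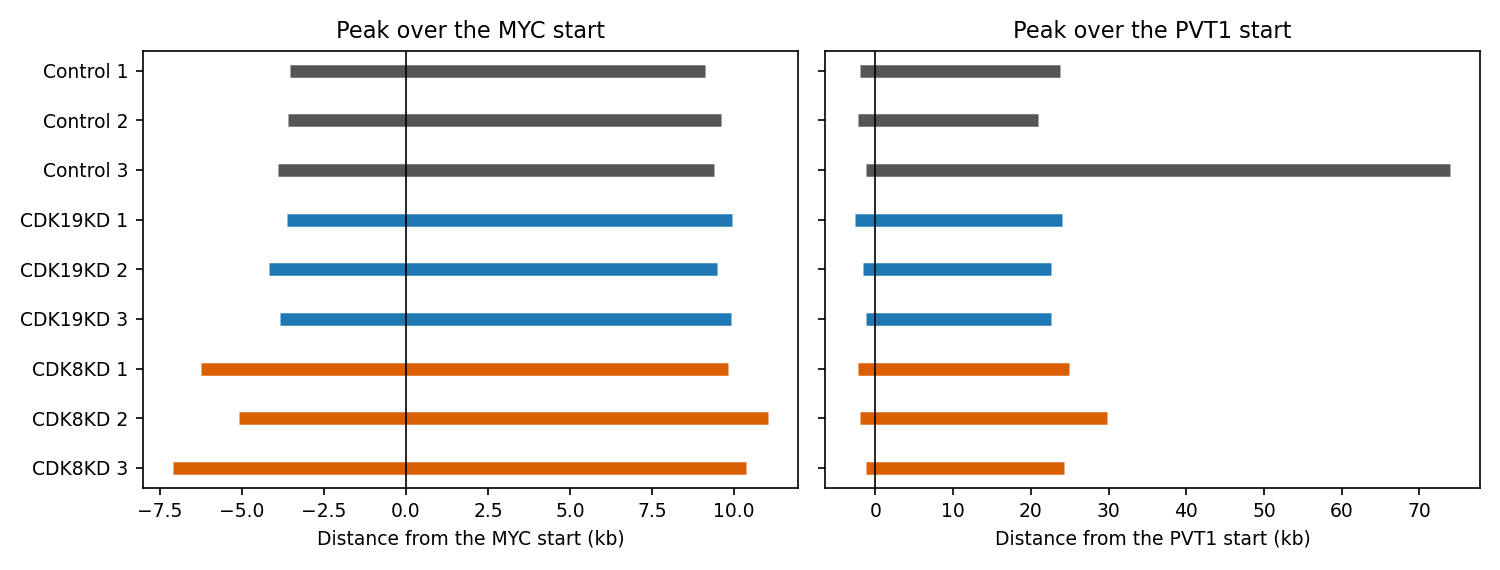
Extent of the peak over the MYC start (left) and over the PVT1 start (right) in each library, as the distance from the start in kb, with negative values upstream. CDK8KD peaks at MYC begin 5.08 to 7.11 kb upstream against 3.55 to 4.18 kb in the other libraries, and the PVT1 peak of Control replicate 3 reaches 73.9 kb into the gene.

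The interval between MYC and PVT1, 53.1 kb long, was covered over 11.5, 10.6 and 10.8 kb in Control, 12.7, 10.2 and 8.77 kb in CDK19KD, and 13.6, 14.6 and 14.2 kb in CDK8KD. Each CDK8KD library lay above each other library, and this interval includes the downstream end of the MYC peak. It was not among the measures tested. All 9 lists held a peak of 3.03 to 6.65 kb here, beginning 21.0 to 23.3 kb downstream of the MYC start. A weaker region before it (chromosome 8, 128765657 to 128768102) was covered over 0.311, 1.04 and 1.82 kb in the CDK8KD replicates and over 0.272 kb in Control replicate 3. No CDK19KD library held it.

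PVT1 was the most fully covered part of the locus after MYC itself. Its start lay under a peak in all 9 lists, which began 1.20 to 2.62 kb before the start. That peak was 25.7, 23.1 and 75.1 kb wide in Control replicates 1, 2 and 3, 26.6, 24.3 and 23.8 kb in CDK19KD, and 27.1, 31.7 and 25.5 kb in CDK8KD. Control replicate 3 stood apart, because its peak ran on without a break into the next cluster of the gene. Merged over the lists, the region over the PVT1 start (chromosome 8, 128804163 to 129021055) was 217 kb wide and the widest of the locus. It was followed by regions of 33.9 kb and 69.2 kb that together reach past the end of the gene.

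Peaks covered 191, 213 and 291 kb of PVT1 in Control replicates 1, 2 and 3, which is 62.1%, 69.4% and 94.9% of the gene. In CDK19KD they covered 205, 220 and 214 kb (66.7%, 71.6% and 69.8%), and in CDK8KD 242, 274 and 295 kb (79.0%, 89.4% and 96.3%). All CDK8KD libraries lay above all CDK19KD libraries, while Control spanned both. Within each replicate number CDK8KD was above Control too, and permuting labels within replicate numbers gave an exact p of 0.167 for the 3 groups. The means were 231 ± 52.8 kb in Control, 213 ± 7.62 kb in CDK19KD and 271 ± 26.6 kb in CDK8KD (SD, n = 3 each), and a test of the 3 groups did not pass (exact permutation p = 0.186, adjusted over 6 measures 0.371, with 42.5% of the variance between groups).

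Between CDK19KD and CDK8KD the log2 ratio of the covered length of PVT1 was −0.35 (exact two-sided p = 0.1, the smallest possible), and between CDK8KD and Control it was 0.23 (exact p = 0.3). Scaling by list total reduced the first to −0.17 (exact p = 0.2) and gave 0.21 for the second (exact p = 0.2). Peaks with a −log10 q of at least 5 gave −0.47 for the first (exact p = 0.1) and 0.45 for the second (exact p = 0.3). For the 3 groups, scaling gave 36.2% of the variance between groups (exact permutation p = 0.304). Leaving out 1 library at a time gave 28.8% to 80.7% (exact permutation p from 0.05 to 0.411), and 0 of the 9 fits passed. The highest share, 80.7% (exact permutation p = 0.05), was reached when Control replicate 3 was left out. The log2 ratio of CDK8KD to Control was then 0.42 (exact p = 0.2), and that of CDK19KD to Control changed sign, from −0.12 (exact p = 0.9) to 0.077 (exact p = 0.4). The 3 libraries with the greatest covered length had the fewest peaks touching PVT1. Their number was 27, 39 and 11 in Control, 27, 32 and 24 in CDK19KD, and 27, 19 and 8 in CDK8KD. In CDK8KD replicate 3, 8 peaks covered nearly the whole gene, and its widest peak was 180 kb wide.

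**Figure D3:**
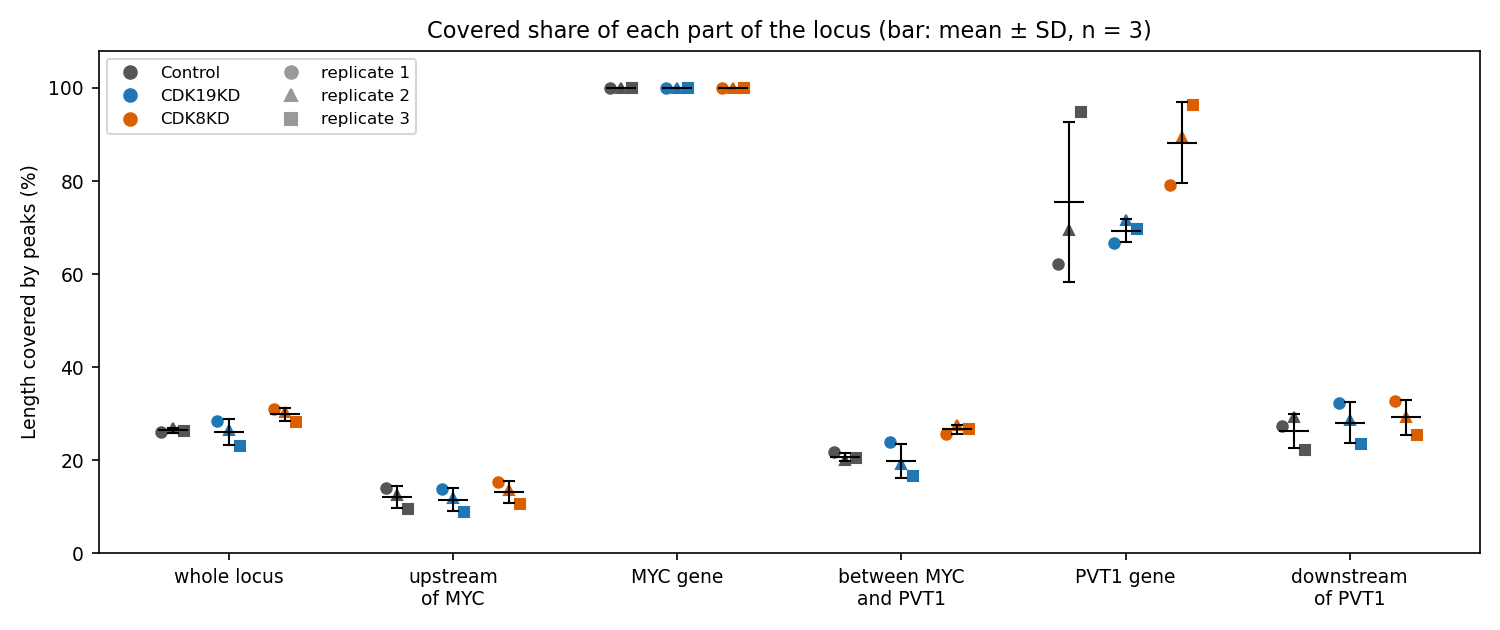
Share of each part of the locus covered by peaks, in percent, for every library (colour for the group, symbol for the replicate number, horizontal bar and whiskers for mean ± SD, n = 3). MYC is at 100% throughout, PVT1 spreads from 62.1% to 96.3%, and on the upstream flank replicate 3 is the lowest of each group.

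Upstream of MYC, 1048 kb of the desert were covered over 148, 130 and 99.9 kb in Control replicates 1, 2 and 3, 145, 123 and 93.0 kb in CDK19KD, and 161, 141 and 111 kb in CDK8KD. These lengths include the part of the MYC peak before the gene. That part averaged 3.68 kb in Control, 3.88 kb in CDK19KD and 6.15 kb in CDK8KD. Within each replicate number CDK8KD was above Control and Control above CDK19KD. The groups overlapped, with 126 ± 24.2 kb in Control, 120 ± 26.0 kb in CDK19KD and 138 ± 25.2 kb in CDK8KD (SD, n = 3 each), and 11.4% of the variance lay between them (exact permutation p = 0.679). Replicate numbers held 88.5% of it, and with labels permuted within them the order of the groups had the smallest p that this allows (exact p = 0.0278, adjusted over the 6 measures 0.0833). For pairs of groups, sign changes within replicate numbers gave an exact p of 0.25 each, again the smallest possible.

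Upstream coverage was highest in the bins that start 548 and 448 kb before the MYC start, with means of 34.5% ± 4.30 and 28.6% ± 3.36 (SD, n = 9). The strongest upstream region (chromosome 8, 128210522 to 128243605, 33.1 kb) lay 505 to 538 kb before MYC and was among the 5 widest and the 5 strongest of the locus. Its covered length was 26.9, 28.3 and 25.5 kb in Control, 26.2, 27.1 and 25.2 kb in CDK19KD, and 27.7, 31.9 and 26.5 kb in CDK8KD. The ranges of the groups overlapped there. A smaller region 63.2 to 70.9 kb before MYC (chromosome 8, 128677418 to 128685081) was covered over 3.48, 3.28 and 1.44 kb in Control, 5.51, 5.47 and 5.10 kb in CDK19KD, and 5.92, 7.66 and 6.41 kb in CDK8KD. It was the other region of the locus, with MYC, at the smallest exact permutation p of 0.00357, and its p adjusted over all regions was 0.191 as well. This region was picked after its values were seen.

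Downstream of PVT1 lay the strongest peak of the locus in every list. The region that holds it (chromosome 8, 129172924 to 129203839) begins 425 kb and ends 456 kb downstream of the MYC start. By the deposited −log10 p its peak ranked 34, 39 and 15 in the Control lists, 31, 15 and 17 in the CDK19KD lists, and 26, 40 and 13 in the CDK8KD lists, among all peaks of chromosomes 1 to 22 and X. Its fold enrichment in the deposited lists was between 6.97 and 10.3. The covered length was 26.1, 24.8 and 26.5 kb in Control, 29.3, 25.2 and 25.6 kb in CDK19KD, and 29.8, 26.7 and 26.6 kb in CDK8KD. Each CDK8KD library was above each Control library, by a mean of 27.7 ± 1.82 kb against 25.8 ± 0.902 kb (SD, n = 3 each), an order that 15.8% of all regions held by the 9 libraries had. The test of 3 groups for this region gave an exact permutation p of 0.429.

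The next strongest regions, by the mean percentile of their peaks within the lists, lay 797 to 828 kb downstream of the MYC start (chromosome 8, 129545662 to 129575846) and 381 to 401 kb downstream of it (chromosome 8, 129128967 to 129149012). The first was covered over 22.8, 20.0 and 19.3 kb in Control, 27.1, 21.7 and 17.8 kb in CDK19KD, and 28.2, 25.4 and 21.9 kb in CDK8KD. The second was covered over 14.1, 11.6 and 16.7 kb in Control, 13.0, 8.70 and 9.01 kb in CDK19KD, and 14.3, 15.8 and 17.4 kb in CDK8KD. In both regions the ranges of Control and CDK8KD overlapped, and in the second each CDK19KD library was below each CDK8KD library. The whole downstream flank, 887 kb long, had a mean covered length of 233 ± 32.3 kb in Control, 249 ± 39.3 kb in CDK19KD and 259 ± 33.1 kb in CDK8KD (SD, n = 3 each). Their ranges overlapped, and 12.1% of the variance lay between groups (exact permutation p = 0.668). Replicate numbers held 77.6% of it, and with labels permuted within them the exact p was 0.139. As on the upstream flank, CDK8KD was above Control within each replicate number (exact p = 0.25 by sign changes, the smallest possible). It was also above CDK19KD within each.

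Over the whole locus, the covered length averaged 607 ± 11.0 kb in Control, 598 ± 63.4 kb in CDK19KD and 687 ± 32.4 kb in CDK8KD (SD, n = 3 each). Every CDK8KD library was above every Control library, with a log2 ratio of 0.18 (exact two-sided p = 0.1, the smallest possible). CDK19KD was spread from 529 to 653 kb and overlapped with both, at log2 ratios of −0.021 to Control (exact p = 0.9) and −0.20 to CDK8KD (exact p = 0.2). The test of the 3 groups did not pass (exact permutation p = 0.0786, adjusted over 6 measures 0.236), with 58.1% of the variance between them. It passed only unadjusted without CDK19KD replicate 1 (76.2%, exact permutation p = 0.0214) and with the 20000 strongest peaks of each list (81.1%, exact permutation p = 0.0179). Adjustment over the 6 measures was not made for these alternatives. Scaled by list total, 24.2% of the variance lay between groups (exact permutation p = 0.364), and the log2 ratio of CDK19KD to CDK8KD was −0.027 (exact p = 0.6). The number of peaks in the locus, 122, 147 and 96 in Control, 116, 125 and 91 in CDK19KD, and 121, 107 and 91 in CDK8KD, overlapped between all groups (13.6% of the variance between them, exact permutation p = 0.625). Within each replicate number Control had the most peaks (exact p = 0.167 with labels permuted within replicate numbers).

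To place differences along the locus, the covered share of windows of 10 kb was tested with limma over all windows of the genome that had a mean share of at least 5%, 129 of them in the locus. For CDK8KD against Control 2 windows of the locus were called higher (Benjamini-Hochberg adjusted p under 0.05) and 0 lower, where 0.716% of all windows were called, 0.63% higher and 0.0858% lower. An unadjusted p under 0.05 was found for 14 windows (10.9%, against 14.7% of all windows). The first (chromosome 8, 129560001 to 129570000) lies in the strong region 797 to 828 kb downstream of MYC. Its covered share was 56.1%, 58.6% and 67.4% in Control, 88.0%, 89.8% and 81.1% in CDK19KD, and 88.9%, 87.7% and 95.5% in CDK8KD, so that Control was below both knockdowns. CDK8KD exceeded Control by 30.0 percentage points (95% interval 20.7 to 39.3, limma adjusted p = 0.0326).

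The second (chromosome 8, 128880001 to 128890000) lies inside PVT1, 132 to 142 kb from the MYC start. It was covered over 89.5%, 81.2% and 89.8% in Control and entirely in all 6 knockdown libraries, a difference of 13.2 points (95% interval 8.15 to 18.2, limma adjusted p = 0.0496). At that upper limit the knockdown libraries have no spread, so the spread within this window comes from Control alone. The interval may therefore be too narrow and the p too small. With the replicate number in the limma model neither window passed (adjusted p = 0.0556 for the first and 0.0641 for the second). Leaving out any 1 CDK19KD or CDK8KD library left 0 windows called, and without Control replicate 2 or Control replicate 3 there was 1. The window over the MYC promoter (chromosome 8, 128740001 to 128750000) was covered over 79.7% ± 8.03 in CDK8KD, 58.2% ± 2.82 in CDK19KD and 53.7% ± 1.93 in Control (SD, n = 3 each). It did not pass for CDK8KD against Control (limma adjusted p = 0.0685) or for CDK19KD against CDK8KD (limma adjusted p = 0.0947).

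For CDK19KD against Control limma called 0 of the 129 windows (0.0782% of all windows were called, 0.0551% higher and 0.0231% lower), and 17 had an unadjusted p under 0.05 (13.2%, against 9.92% of all windows). The lowest adjusted p in the locus, 0.109, belonged to the window 812 kb downstream of MYC, where CDK19KD exceeded Control by 25.6 points (95% interval 16.3 to 34.9). Both comparisons use the same Control libraries. For the window inside PVT1 that was fully covered in both knockdowns, the CDK19KD difference was the same 13.2 points (limma adjusted p = 0.123), again with spread in Control alone. In the window 488 kb before MYC (chromosome 8, 128260001 to 128270000) CDK19KD had 32.6% ± 7.08 against 67.0% ± 5.56 in Control (SD, n = 3 each, limma adjusted p = 0.162).

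For CDK19KD against CDK8KD limma called 0 of the 129 windows (1.01% of all windows were called, 0.225% higher and 0.78% lower in CDK19KD), and 22 had an unadjusted p under 0.05 (17.1%, against 14.6% of all windows). The difference with the lowest adjusted p lay inside PVT1 (chromosome 8, 128980001 to 128990000), with 55.0% ± 4.19 in CDK19KD and 94.0% ± 10.3 in CDK8KD (SD, n = 3 each, limma adjusted p = 0.0752). With the replicate number in the model, 3 windows of the locus were called, all lower in CDK19KD. They were this one (adjusted p = 0.0443), another inside PVT1 (chromosome 8, 128960001 to 128970000, adjusted p = 0.0471) and the window 488 kb before MYC, where CDK8KD had 63.4% ± 8.81 (SD, n = 3, adjusted p = 0.0467).

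Of the 30 windows wholly inside PVT1 that were tested, 23 had a lower mean share in CDK19KD than in CDK8KD, 0 a higher one and 7 the same, where 63.5% of all windows were lower in CDK19KD. CDK8KD was above Control in 24 of the 30 and below it in 1, where 53.6% of all windows were higher in CDK8KD. Over the whole locus the median difference was 5.27 points for CDK8KD against Control, where the median over all tested windows was 0.880. For CDK19KD against CDK8KD it was −4.37 points, where the median over all was −3.22. Scaling by list total turned the sign of the latter, to a median of 1.64 points in the locus and 0.524 over all windows, with 18 of the 30 PVT1 windows then lower in CDK19KD than in CDK8KD and 12 higher. For CDK19KD against Control the locus median was 0 and became 4.998 points with scaling (−2.26 and 0.983 over all windows), and for CDK8KD against Control it became 3.98 points. Neighbouring windows often lie under 1 peak, so these counts describe the pattern and are not independent values.

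**Figure D4:**
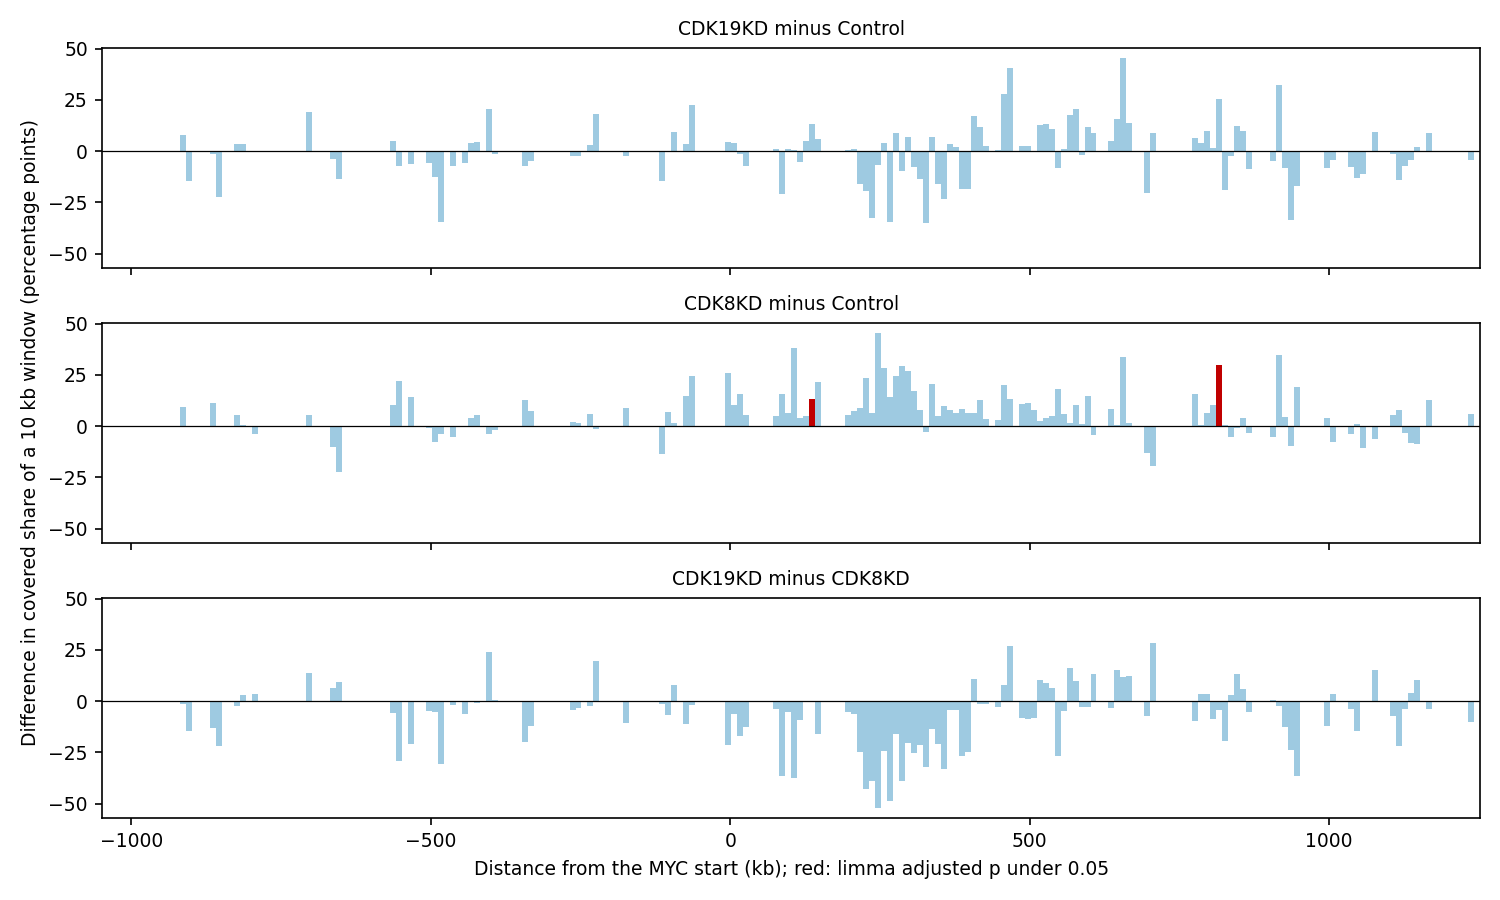
Difference in the covered share of 10 kb windows, in percentage points, along the locus (distance from the MYC start in kb) for the 3 comparisons, with the windows called by limma in red. CDK8KD exceeds Control in 24 of 30 windows inside PVT1, and the 2 windows called lie 132 and 812 kb downstream of the MYC start.

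Merging the peaks of the 9 lists gave 160 regions in the locus, together 970 kb. All 9 libraries held 45 of them (28.1%, where 28.3% of all 120387 merged regions were held by all), and these 45 made up 802 kb. A single library held 71 regions (44.4%, against 38.5% of all regions). Control replicate 2 alone held 18 of the 71, the most, and CDK19KD replicate 3 alone held 1. The regions held throughout had a median width of 7.66 kb in the locus and 7.60 kb over all.

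**Figure D5:**
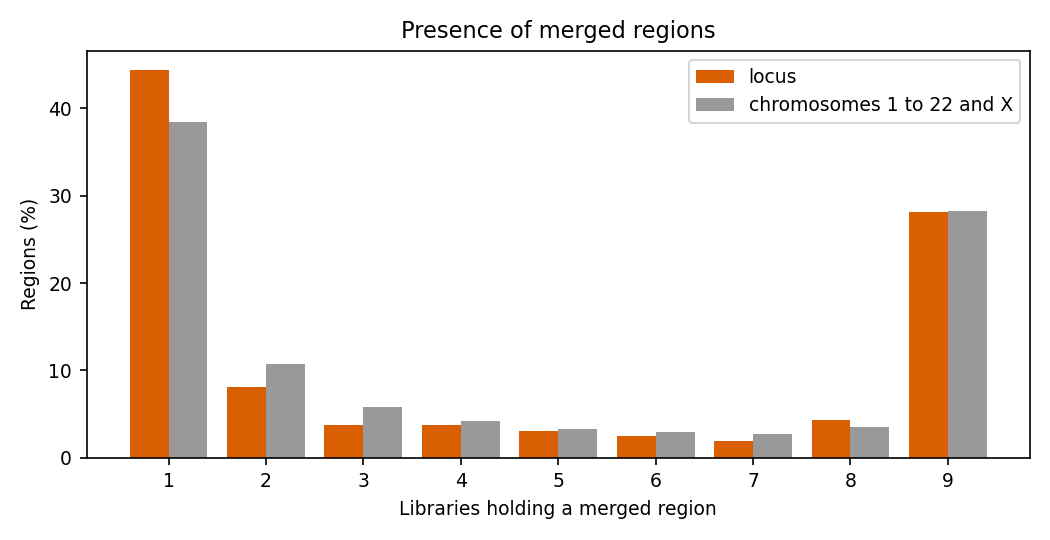
Share of merged regions, in percent, by the number of libraries that hold them, for the locus and for chromosomes 1 to 22 and X. In both, most regions are held by a single library or by all 9, with 28.1% of the locus regions held by all 9.

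Presence or absence of whole regions seldom followed the groups. One region was held by all CDK19KD and no Control libraries (0.599% of all regions had this pattern), 702 to 698 kb before MYC (chromosome 8, 128046710 to 128050688), and CDK8KD replicate 1 held it too. One was held by all Control and no CDK19KD libraries (0.42% of all regions), 690 to 694 kb downstream of MYC (chromosome 8, 129438528 to 129442171), and CDK8KD replicates 2 and 3 also held it. Between CDK8KD and Control there were 0 such regions in the locus in either direction (0.605% and 0.39% of all regions), a count with no test. One region was held by all CDK19KD and no CDK8KD libraries (0.822% of all), 705 to 709 kb downstream of MYC (chromosome 8, 129453145 to 129457147). Its opposite (0.772% of all) was the weak region between MYC and PVT1 described above. With 160 regions in the locus, these shares correspond to counts near 1.

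Within the 45 regions held by all 9 libraries, covered length separated the groups in a few places. CDK8KD was above Control without overlap in 7 of the 45, where 15.8% of all regions had this order, and below it in 1 (4.34% of all). CDK19KD was above Control without overlap in 8 of the 45 (6.9% of all regions) and below it in 1 (8.44% of all). CDK8KD was above CDK19KD in 11 of the 45 (19.7% of all) and below it in 5 (4.52% of all). The median log2 ratio over the 45 was 0.17 for CDK8KD against Control and −0.023 for CDK19KD against Control, where the medians over all regions were 0.085 and −0.066.

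Some regions were broader in CDK19KD than in Control. The region 224 to 231 kb before MYC (chromosome 8, 128516825 to 128524051) was covered over 4.01, 3.27 and 3.48 kb in Control, 6.15, 5.67 and 6.40 kb in CDK19KD, and 3.54, 4.18 and 2.66 kb in CDK8KD. CDK19KD was above every other library there (exact permutation p = 0.0357 for 3 groups, adjusted over all regions 0.278). The region 648 to 660 kb downstream of MYC (chromosome 8, 129396778 to 129407944) was covered over 3.10, 0.504 and 2.62 kb in Control, 8.54, 6.51 and 7.89 kb in CDK19KD, and 7.95, 4.86 and 4.37 kb in CDK8KD. There Control was below both knockdowns (exact permutation p = 0.0107, adjusted over all regions 0.228). Both regions were picked after their values were seen.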

How the data were processed

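H3K27ac ChIP-seq of native chromatin was compared between Control, CDK19KD and CDK8KD, with groups and replicate numbers from the sample titles. The 3 Input libraries were not analysed here. Per the submitters' processing notes MACS2, deepTools and hg19 were used; versions, settings, control library, aligner and depth are not given in the sources used here. The authors deposited 1 list of broad peaks per library. Each peak carries a fold enrichment (a linear ratio), a −log10 p and a −log10 q, all deposited by the authors. The authors' score column is the whole part of 10 × −log10 q and was left aside. These values served only to rank and filter peaks within their list.

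Covered length, merged regions (overlap of at least 1 bp) and windows of 10 kb were computed on chromosomes 1 to 22 and X with Python 3.11.15. Bounds of the locus and of both genes came from the definition of the locus, and gene order from RefSeq (GRCh38.p14). An annotation of hg19 was not used here, so the planned look at genes of MYC partners was not analysed. No sequence is printed. The 6 measures (covered length of the locus, of PVT1 and of both flanks, peak number, and width of the MYC peak joined within 1000 bp) were tested by exact permutation tests over 280 splits of 9 libraries (smallest p 0.00357), two-sided over 10 splits for pairs (smallest p 0.1). Windows were tested with limma 3.58.1 (R 4.3.3, trend), Benjamini-Hochberg adjusted over all 78055 windows. The step was also run on simulated shares that were independent and without bounds. Their shifts were larger than the differences called here, so that run does not test calls of this size. After group means were removed, the window shares of same-numbered libraries correlated at 0.138 to 0.611 in all 9 pairs, above 0.1. Libraries with different numbers correlated at −0.612 to 0.203, with 2 of 18 pairs above 0.1, so the ranges overlapped. On this basis the numbers from the titles were taken to pair the libraries. Named were MYC, PVT1, the 5 widest and 5 strongest regions, group-exclusive regions, and windows called or of the 3 lowest p. The locus, measures and lists were chosen with earlier results of these data known. Alternatives were other peak thresholds, scaling by list total, joining and merging within 1000 bp, at least 50% of a region covered, windows of 5 kb, no minimum share, leaving out each library in turn, and the replicate number as a block.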

Additional observations from a re-analysis of the deposited data

How the results depend on the processing

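Over 36 results and 413 alternative values, 304 kept direction and side of the threshold (for counts, stayed within 1.5 times), 24 no longer passed, 3 newly passed, 54 were counts that moved and 28 changed sign. For alternatives of the 6 measures, passing was judged on the unadjusted p. Causes were not tested. The share of variance in the width of the MYC peak between groups passed in all 9 fits that left out 1 library (92.9% to 98.1%), and under scaling by list total (86.4%); with permutation within replicate numbers it passed only unadjusted (exact p = 0.0278, adjusted 0.0833). The covered length of the merged MYC region (93.6%, an alternative chosen after seeing the data) did not pass when adjusted over all regions (exact permutation p = 0.191). For the locus, 81.1% with the 20000 strongest peaks passed (unadjusted), scaling by list total gave 24.2% (exact permutation p = 0.364), and leaving out libraries gave 45.2% to 76.2%. With the replicate block the upstream flank (11.4%) newly passed, unadjusted (exact p = 0.0278, adjusted 0.0833), the windows called were 0 for CDK8KD against Control and 3 for CDK19KD against CDK8KD, and no other call changed.

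Log2 ratios of pairs of groups, none of which could pass with 3 libraries each, changed sign in these cases. For CDK19KD against Control, they became 0.081, 0.094 and 0.12 for the locus (−log10 q of at least 5, 20000 strongest peaks, scaling), 0.21, 0.19 and 0.021 for peak number, 0.15, 0.092 and 0.060 for the upstream flank, and for PVT1 0.044 and 0.038 (20000 strongest, scaling). For CDK8KD against Control, peak number became 0.089 and 0.033 (−log10 q, 20000 strongest). For CDK19KD against CDK8KD, the upstream flank became 0.031 and 0.016 (same settings) and the downstream flank 0.11 (scaling). Scaling also turned the median window difference of the locus between CDK19KD and CDK8KD from −4.37 to 1.64 points. Leaving out 1 library gave ranges that include 0. For CDK19KD against Control they were −0.089 to 0.060 for the locus, −0.28 to 0.022 for peak number, −0.22 to 0.088 upstream, −0.24 to 0.077 for PVT1 and −0.015 to 0.21 downstream. For CDK8KD against Control the upstream flank ran from −0.011 to 0.26. For CDK19KD against CDK8KD peak number ran from −0.043 to 0.18 and the downstream flank from −0.17 to 0.060.

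Regions held by all 9 libraries were 16 with a −log10 q of at least 5, 17 with the 20000 strongest peaks and 12 with 50% covered. Group-exclusive regions, under those settings in that order where they moved, were 2 and 4 (−log10 q, 50%) for CDK19KD not Control, 0 and 0 for Control not CDK19KD, 1 (50%) for CDK8KD not Control, 2 and 0 for CDK19KD not CDK8KD, and 0, 2 and 2 (all settings) for CDK8KD not CDK19KD. Leaving out 1 library gave 1 to 3, 1 to 3, 0 to 2, 1 to 5 and 1 to 3 of them, and 0 to 2 for Control not CDK8KD. Windows called were 3 and 2 (−log10 q, 20000 strongest) for CDK19KD against Control, 3 and 3 for CDK19KD against CDK8KD, and, for CDK8KD against Control, 0 and 0, 0 with scaling, 1 without a minimum share and 1 with windows of 5 kb. Leaving out 1 library gave 0 to 2, 0 to 1 and 0 to 2 windows. Depth is unknown, so what it limits could not be measured.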
